A study of Mus musculus with 6 samples.

Results

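The 31 genes described here encode the peroxisome's assembly machinery and its lipid enzymes: 12 peroxins (Pex genes), 2 membrane transporters of the Abcd family, 13 enzymes of fatty acid beta-oxidation, alpha-oxidation and their side steps, catalase, and 3 enzymes of ether lipid synthesis. They were grouped by function, and membership rests on no difference between the groups, although the list was drawn up with earlier results of these data known. Each gene was represented by its brightest probe set among those annotated to that symbol alone, a probe set being a group of short oligonucleotides on the array that together report 1 transcript region. All 31 had such a probe set and were bright enough to be tested, among 18193 genes with a probe set and 11140 genes tested in all.

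Peroxisomes are small single-membrane organelles that shorten very-long-chain, branched and dicarboxylic fatty acids, hand the shortened acyl groups to mitochondria, break down the hydrogen peroxide formed on the way, and begin the synthesis of ether lipids. Their membrane proteins are inserted by one group of peroxins, while their matrix enzymes are carried in by soluble receptors that dock at the membrane and are then ubiquitinated and pulled back to the cytosol. Brown adipose tissue (BAT), the heat-producing fat of mammals, holds many peroxisomes, and a number of their genes are targets of PPAR nuclear receptors.

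BAT was taken from 3 KRAP-deficient mice (KRAP-/-, labelled KO) and 3 wild-type mice (WT). They were 3 littermate pairs fed normal chow, and animals of the same number, 1 to 3, were taken as a pair. The animals were 32 weeks old. In the KRAP-/- mice a block of exons of the KRAP gene had been replaced in the germline by a neo cassette in the opposite orientation, so KRAP was disrupted in the whole body and not in fat alone, on a background crossed to C57BL6/J. Each array carried total RNA of 1 animal, hybridised to the Affymetrix Mouse Genome 430 2.0 array, so the spread between replicates is a spread between animals. Below, each signal is expressed relative to the median intensity of its own array, values run from pair 1 to pair 3, and a log2 difference is KO minus WT. The comparison asks how the peroxisomal transcripts of BAT differ when KRAP is absent.

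KRAP itself (Itprid2) read 47.0, 35.1 and 41.4 in the KO mice and 55.3, 56.6 and 42.2 in the WT mice, a log2 difference of -0.32 (95% CI -0.83 to 0.20, limma adjusted p = 0.720), and where its probe set lies relative to the replaced exons was not determined, so it does not check the labels. All 8 brown adipocyte markers were tested, with summed signals of 1884 to 2563. The array of the WT mouse in pair 2 differed from the rest in RNA measures: its ratio of 3' to 5' beta-actin signal was 3.80 against 1.91 to 2.58 on the other arrays, and its 18S rRNA control read 1731 intensity units against 112 to 215. Skeletal muscle markers, 11 of 11 tested, summed to 908 in KO 2 and 367 in WT 3 and to 33.0 to 117 on the other 4 arrays. Hepatocyte markers, of which 11 had a probe set and 3 were bright enough to be tested, summed to 67.3 in KO 3 and to 4.17 to 5.71 elsewhere. Albumin (Alb) read 28.5 in KO 3 and 0.640 to 1.18 on the other arrays, and Ttr read 14.7 and 0.0136 to 0.0665. Cyp7a1, Tat and Ahsg stayed below the array median on all 6 arrays. Of the 11, 3 were higher in KO in all 3 pairs (Alb, Apoa1 and Fgg) and 0 were lower in all 3. Of 7 macrophage markers tested, 3 were higher in KO in all 3 pairs (Cd163 by 1.29, Mrc1 by 0.45 and Cd14 by 0.44) and 1 was lower (Cd68), with summed signals of 106 to 120 in KO and 86.2 to 119 in WT. Of 6 endothelial markers, 3 were lower in all 3 pairs (Kdr at -0.41, Tie1 at -0.37 and Cdh5 at -0.36), with sums of 38.5 to 41.2 in KO and 37.8 to 53.9 in WT, and the brown marker Otop1 was lower in all 3 by a log2 difference of -0.73. None of these markers had a limma adjusted p under 0.05. The part of these cell types in the values below was not tested. In whole tissue, fewer cells of a type and less RNA per cell cannot be told apart.

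The promoters of Pex6, Pex10, Pecr and Gnpat are shown because these 4 genes had the lowest p among the 7 members that were higher in KO than in WT in every pair. Each is the 250 bases before the transcription start, read 5' to 3' in the direction of the gene, from RefSeq on GRCm38.p6. Capitals mark the GC box with the letters GGGCGG that many housekeeping promoters carry. They also mark a CCAAT box, spelled CCAAT, which binds the factor NF-Y. They further mark the E-box with the letters CACGTG. Each was searched on both strands with no mismatch, and no match overlapped another. They lie at chr17:46711226-46711475 on the plus strand, chr4:155066780-155067029 on the plus strand, chr1:72284322-72284571 on the minus strand and chr8:124862783-124863032 on the plus strand, in the order printed.
Pex6: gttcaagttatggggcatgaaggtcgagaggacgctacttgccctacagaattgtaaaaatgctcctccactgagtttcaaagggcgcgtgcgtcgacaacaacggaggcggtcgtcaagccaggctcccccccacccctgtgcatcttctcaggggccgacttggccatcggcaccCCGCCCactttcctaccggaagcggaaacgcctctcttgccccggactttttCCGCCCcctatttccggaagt
Pex10: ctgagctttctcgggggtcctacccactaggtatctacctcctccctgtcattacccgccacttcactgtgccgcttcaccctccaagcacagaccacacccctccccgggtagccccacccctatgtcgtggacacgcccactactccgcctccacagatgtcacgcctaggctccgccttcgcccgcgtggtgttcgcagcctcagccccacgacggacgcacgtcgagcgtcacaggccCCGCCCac
Pecr: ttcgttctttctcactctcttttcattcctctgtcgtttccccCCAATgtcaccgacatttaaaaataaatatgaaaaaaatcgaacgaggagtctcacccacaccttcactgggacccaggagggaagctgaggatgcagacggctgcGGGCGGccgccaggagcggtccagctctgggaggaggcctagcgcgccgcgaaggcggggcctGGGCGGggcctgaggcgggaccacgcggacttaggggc
Gnpat: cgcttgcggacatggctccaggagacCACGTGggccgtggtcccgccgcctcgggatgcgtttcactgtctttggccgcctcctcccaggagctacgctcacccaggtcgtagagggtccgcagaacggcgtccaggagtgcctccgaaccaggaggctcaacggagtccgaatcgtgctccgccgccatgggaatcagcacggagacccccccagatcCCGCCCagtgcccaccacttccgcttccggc

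A GC box was found in all 4 of these windows, 2 of them in Pex6, 1 in Pex10, 2 in Pecr and 1 in Gnpat, while the CCAAT box was found in Pecr and the E-box in Gnpat. Over the members, 26 had a promoter entry, and 19 of these held a GC box, against 32.7% of 32851 promoters. A CCAAT box was present in 12 of the 26, against 33.8% of all promoters, and an E-box in 1, Gnpat, against 6.02%. The direct repeat that PPAR and RXR bind, searched as AGGTCANAGGTCA with up to 2 mismatches, was present in 1 of the 26, Cat, against 3.24% of promoters. For all of these motifs a member counted if any of its promoter entries held a match, while the percentages are over single promoter entries. The counts and percentages are therefore not in the same unit, and a gene with several entries has more ways to match. A match here is a match of letters in a short window, and many response elements lie elsewhere.

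No peroxisomal gene passed the test. Of the 31 members, 0 had a limma adjusted p under 0.05, beside 0% of the 11140 genes tested, and the adjusted p of the members ran from 0.482 to 0.999. Over all 22356 probe sets tested, 0 passed and 1911 had an unadjusted p under 0.05. At the unadjusted level 3 members were higher in KO, Pex10, Pex6 and Pecr, which is 9.68% of the members beside 3.22% of all genes. One member was lower, Abcd2, 3.23% beside 4.98%. This count of 4 was 3 without pair 1, 3 without pair 2 and 0 without pair 3. In the same 4 genes the groups did not overlap: every KO signal of Pex10, Pex6 and Pecr lay above every WT signal, 9.68% of the members beside 4.43% of all genes, and every KO signal of Abcd2 lay below every WT signal, 3.23% beside 7.87%.

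Counted by pair, 7 members were higher in KO in all 3 pairs, namely Pex10, Pex6, Ehhadh, Crot, Decr2, Pecr and Gnpat, which is 22.6% of the members beside 10.9% of all genes. Pex5 and Abcd2 were lower in all 3 pairs, 6.45% beside 19.7%. No member reached 1.5-fold in the same direction in every pair, 0 higher and 0 lower, where 0.601% of all genes were at least 1.5-fold higher and 0.862% at least 1.5-fold lower. The fitted differences of the members ran from -0.71 to 0.72 with a median of -0.004, and the median of all genes tested was -0.07. The 10 members furthest from 0 were Ehhadh, Abcd2, Pecr, Pex10, Pex6, Pex5, Decr2, Gnpat, Far1 and Crot, as the plot of all members by pair shows. The median of the members was 0.16 without pair 2 and -0.0868 without pair 3.

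**Figure D1:**
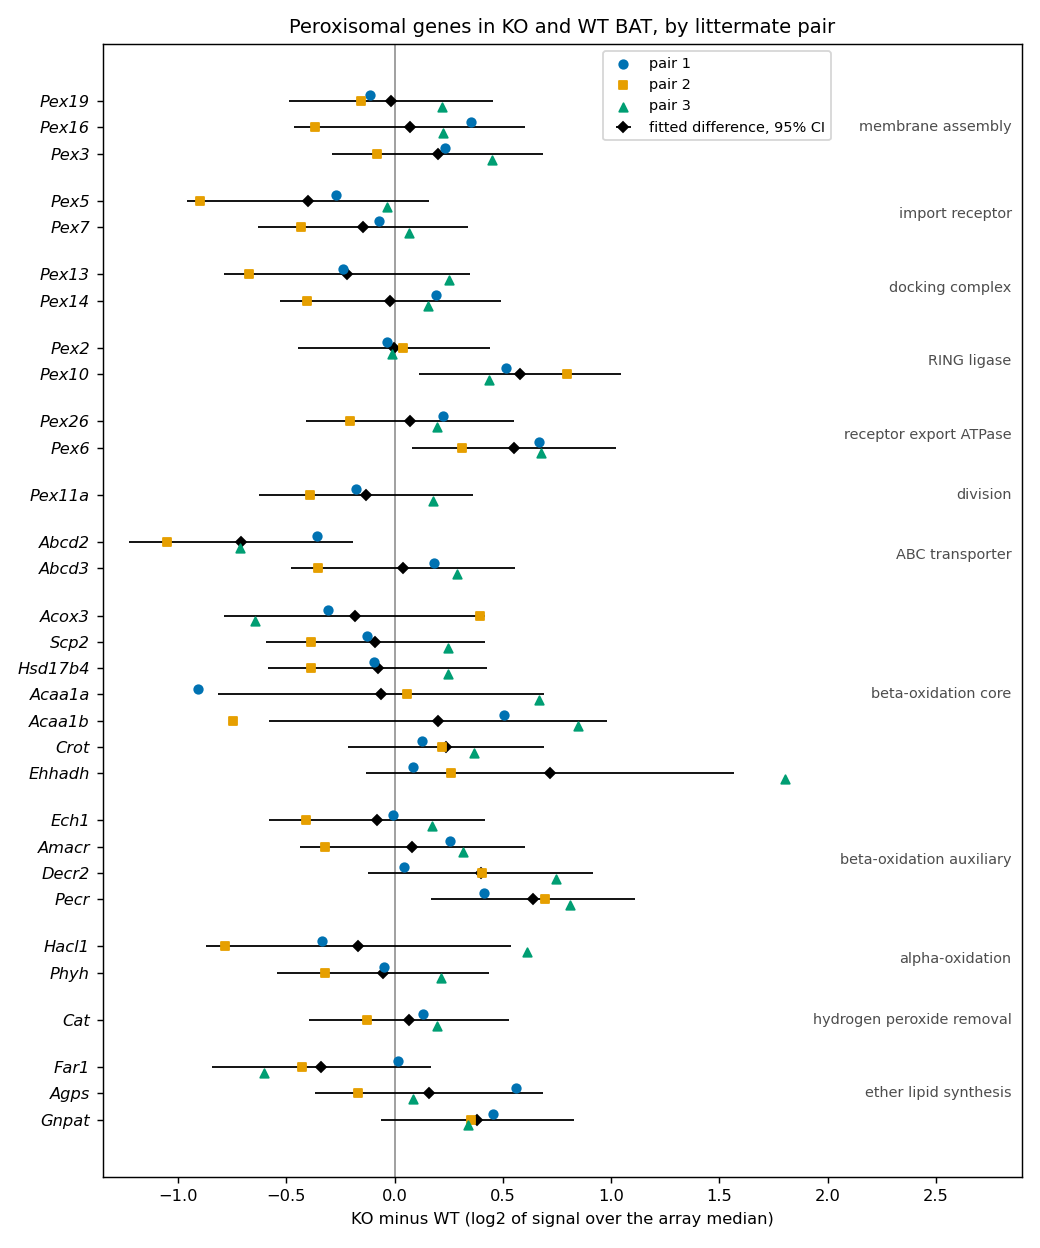
KO minus WT on the log2 scale (x axis) for each of the 31 peroxisomal genes (y axis), grouped by role; coloured symbols are the 3 littermate pairs, black diamonds the fitted difference and bars its 95% confidence interval. The intervals of Pex10, Pex6, Pecr and Abcd2 exclude 0 before adjustment, and pair 2 lies below 0 for 21 of the 31 genes while pair 3 lies above 0 for 26.

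Among the peroxins that pull import receptors back out of the membrane, Pex6 and Pex10 had the largest differences. Pex6, an AAA ATPase that extracts the ubiquitinated receptor, read 41.9, 45.8 and 55.7 in the KO mice of pairs 1 to 3 and 26.4, 37.0 and 34.9 in their WT littermates. The KO mean was 47.8 ± 7.10 and the WT mean 32.8 ± 5.60 (SD, n = 3), 1.46-fold higher in KO (log2 0.55, 95% CI 0.08 to 1.02, limma adjusted p = 0.527). All KO signals of Pex6 were above all WT signals, and the ratio within a pair was 1.59, 1.24 and 1.60. Pex6 was covered by 5 tested probe sets, and all 5 were higher in KO, by 0.55, 0.62, 0.50, 0.61 and 0.08 from the brightest to the dimmest, the dimmest being lower in KO in pair 3. The brightest of them is of a design that can share signal with other transcripts, and the 2 of plain design gave 0.50 and 0.08.

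Pex10, a RING ubiquitin ligase that marks the receptor for this extraction, read 5.68, 7.33 and 5.85 in KO and 3.98, 4.23 and 4.33 in WT. The mean over the KO mice was 6.29 ± 0.908 and over the WT mice 4.18 ± 0.179 (SD, n = 3), a 1.496-fold difference (log2 0.58, 95% CI 0.11 to 1.05, adjusted p = 0.508). The 3 WT animals differed little and all KO animals lay above them, with KO 2 the highest. The partners of these 2 genes lay nearer 0. Pex2, the other RING ligase measured, read 28.7, 28.4 and 29.2 in KO and 29.4, 27.7 and 29.5 in WT, a log2 difference of -0.004 (95% CI -0.45 to 0.44). Pex26, the membrane anchor of the ATPase, differed by 0.07 (95% CI -0.41 to 0.55). The differences between Pex6 or Pex10 and these partners were not tested.

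Of the import receptors, Pex5 was lower in KO in all 3 pairs and Pex7 was not. Pex5, the receptor for proteins with the common C-terminal import signal, read 8.32, 5.82 and 6.19 in KO and 10.04, 10.8 and 6.35 in WT. The log2 difference was -0.40 (95% CI -0.96 to 0.16, adjusted p = 0.686). KO was below WT in each pair, but the groups overlapped, since KO 1 was above WT 3. Most of the difference came from pair 2, which holds the WT array with the high 3' to 5' ratio: without that pair it was -0.15, and the second tested probe set of Pex5 gave -0.002. Pex7, the receptor for the N-terminal signal, differed by -0.15 (95% CI -0.63 to 0.34), with pair values of -0.07, -0.43 and 0.07, and by -0.003 without pair 2.

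The other assembly genes differed by less than the spread between animals. Of the docking complex, Pex13 gave -0.22 (95% CI -0.79 to 0.35) and Pex14 -0.02. Pex3, Pex16 and Pex19, which together insert peroxisomal membrane proteins, gave 0.20, 0.07 and -0.02, and Pex11a, which promotes peroxisome division, gave -0.13 (95% CI -0.63 to 0.36). In all 6 of these genes the groups overlapped and the pairs went both ways at the brightest probe set. The second probe sets of Pex3 (0.26) and Pex19 (0.17) were higher in KO in all 3 pairs, and that of Pex11a (-0.28) was lower in all 3, each with overlap. The second of Pex13 and the third of Pex19 went both ways.

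**Figure D2:**
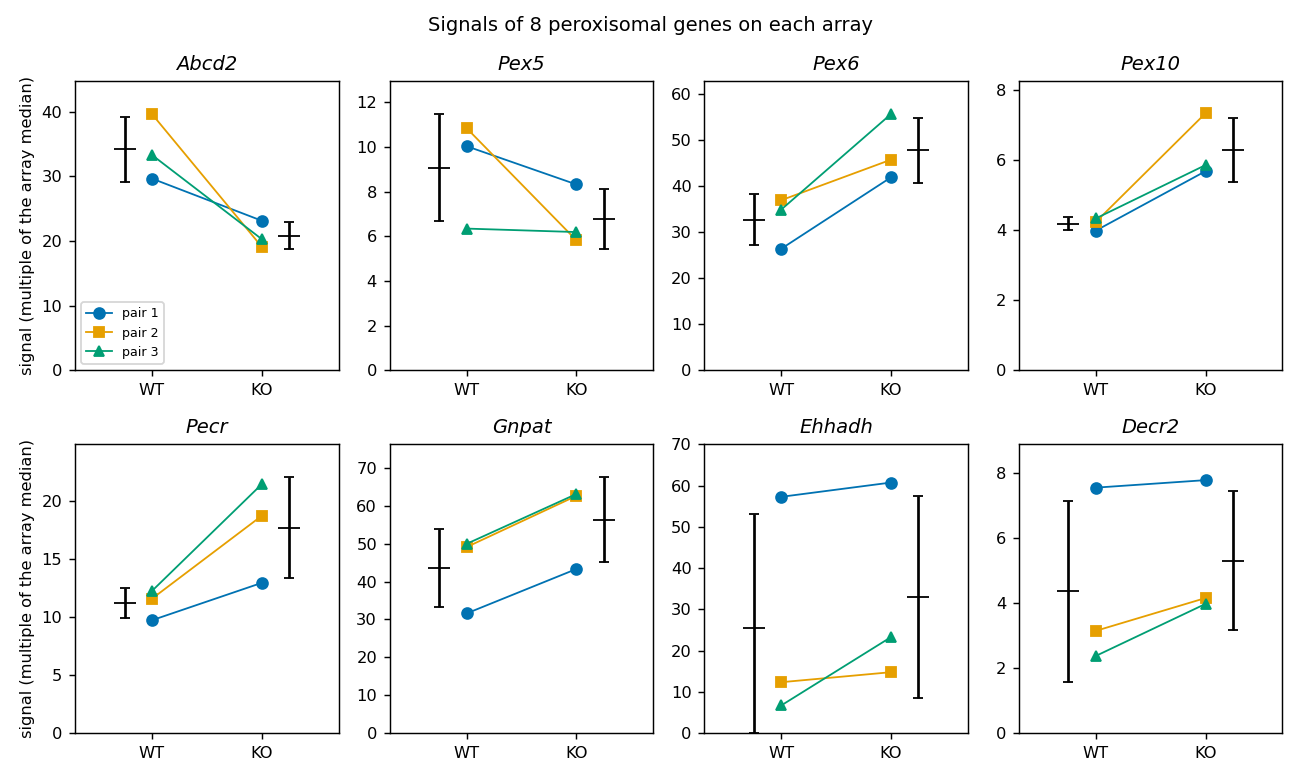
Signal as a multiple of the array median (y axis, starting at 0) in WT and KO mice (x axis) for 8 of the genes; lines join littermates, and the black marks beside them are the group mean with its SD (n = 3), drawn down to 0 at most. Abcd2 is lower and Pex6, Pex10 and Pecr are higher in every KO animal than in any WT animal, while Ehhadh and Decr2 differ more between pair 1 and the other pairs than between genotypes.

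The transporter Abcd2, which carries very-long-chain and polyunsaturated acyl-CoAs into the peroxisome, was the member furthest below WT in KO. It read 23.1, 19.1 and 20.3 in KO and 29.7, 39.7 and 33.3 in WT, with means of 20.8 ± 2.08 and 34.2 ± 5.05 (SD, n = 3). The level in WT was 1.64-fold that in KO (log2 -0.71, 95% CI -1.23 to -0.19, limma adjusted p = 0.482). Every KO animal lay below every WT animal, and the KO to WT ratio was 0.780, 0.482 and 0.609 in pairs 1 to 3.

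Abcd2 had 3 tested probe sets, all without the design that can take up other transcripts, and they gave -0.71, -0.70 and -0.87, each lower in KO in all 3 pairs. When the variance prior was allowed to follow intensity with a robust fit, the adjusted p of Abcd2 was 0.0372, and it was the 1 member to pass there. Leaving out a pair gave -0.54 to -0.89. White adipocyte markers also differed between the groups, though not all in 1 direction. Of 6 with a probe set, 3 were lower in KO in all 3 pairs, with log2 differences of -2.07 for leptin (Lep), -1.65 for Nnat and -1.42 for Npr3, and 1, Retn, was higher in all 3 by 0.95. Their summed signal was 67.0 to 104 in KO and 79.9 to 107 in WT, and their part in the Abcd2 value was not tested. Abcd3, which carries branched and dicarboxylic acyl-CoAs, differed by 0.04 (95% CI -0.48 to 0.55).

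**Figure D3:**
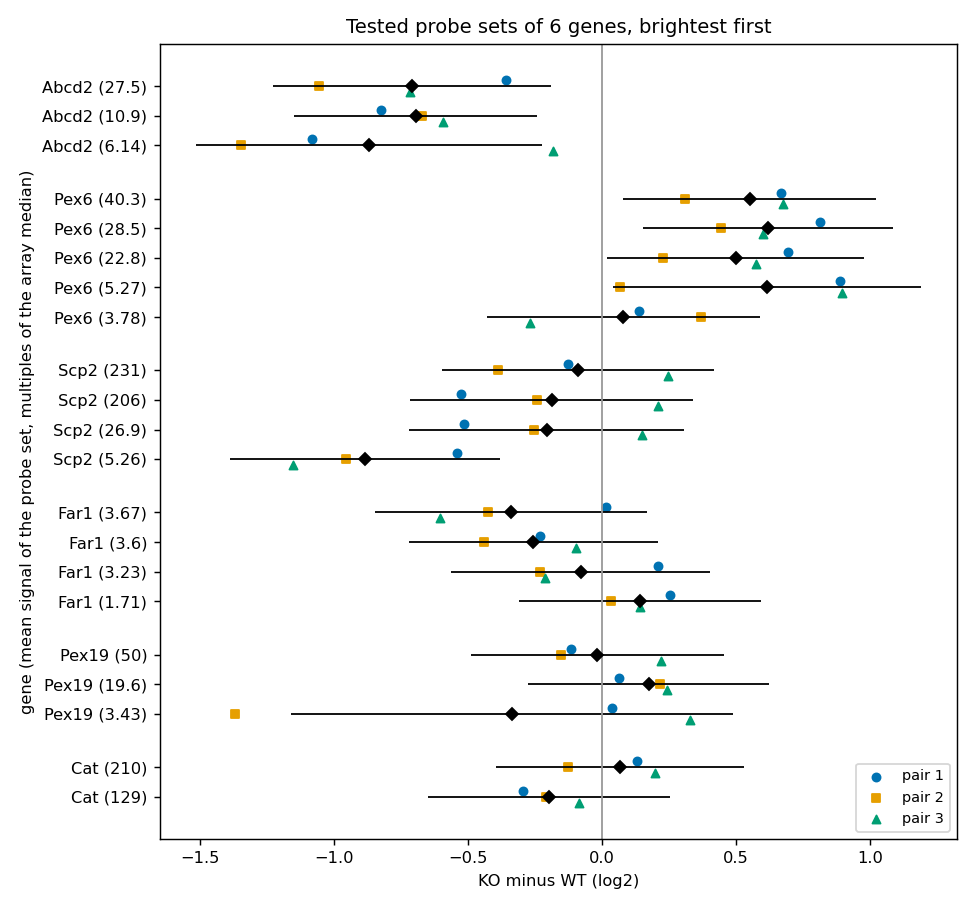
KO minus WT on the log2 scale (x axis) for every tested probe set of 6 genes (y axis, with the mean signal of the probe set in multiples of the array median in brackets); coloured symbols are littermate pairs, diamonds the fitted difference and bars its 95% confidence interval. The 3 probe sets of Abcd2 lie below 0 and the 5 of Pex6 above 0, whereas those of Far1, Pex19 and Cat lie on both sides.

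Among the auxiliary enzymes that act on unsaturated and branched acyl chains, Pecr and Decr2 were higher in KO in all 3 pairs. Pecr, the peroxisomal trans-2-enoyl-CoA reductase, read 12.9, 18.7 and 21.4 in KO and 9.70, 11.6 and 12.2 in WT, with means of 17.7 ± 4.34 and 11.2 ± 1.31 (SD, n = 3). It was 1.56-fold higher in KO (log2 0.64, 95% CI 0.17 to 1.11, adjusted p = 0.484). The groups did not overlap, and the ratio within pairs was 1.33, 1.62 and 1.75.

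Decr2, the 2,4-dienoyl-CoA reductase of peroxisomes, read 7.79, 4.16 and 3.98 in KO and 7.56, 3.14 and 2.37 in WT. The log2 difference was 0.40 (95% CI -0.12 to 0.92, adjusted p = 0.665). Both animals of pair 1 were above the other 4, so the groups overlapped, and the ratio was 1.03 in pair 1, 1.32 in pair 2 and 1.68 in pair 3. The racemase Amacr gave 0.08 (95% CI -0.44 to 0.60) and the dienoyl-CoA isomerase Ech1 gave -0.08 (95% CI -0.58 to 0.42).

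Of the 7 genes of the core pathway, Ehhadh had the largest difference and the widest interval. Ehhadh, the L-bifunctional enzyme that hydrates and dehydrogenates straight-chain acyl-CoAs and a classic PPARalpha target in liver, read 60.8, 14.7 and 23.3 in KO and 57.3, 12.3 and 6.65 in WT. The log2 difference was 0.72 (95% CI -0.13 to 1.57, adjusted p = 0.639). The level was far higher in both animals of pair 1 than in the other 4. Within pairs KO was 1.06, 1.20 and 3.49 times WT, and without pair 3 the difference was 0.17. Pair 3 is the pair in which KO carried the hepatocyte marker signal given above, whose part in the Ehhadh value was not tested.

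Crot, which puts shortened acyl groups on carnitine for export, read 19.4, 22.9 and 25.0 in KO and 17.8, 19.7 and 19.4 in WT. The difference was 0.24 (95% CI -0.22 to 0.69, adjusted p = 0.774). Each KO animal was above its littermate, by a ratio of 1.09, 1.16 and 1.29, although KO 1 fell among the WT values.

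At their brightest probe sets, the remaining core enzymes went both ways between pairs. The thiolase gene Acaa1b gave 0.20 with pair values of 0.50, -0.75 and 0.85, and its near-identical copy Acaa1a gave -0.06 with -0.91, 0.06 and 0.66. The second Acaa1a probe set gave 0.33 and was higher in KO in all 3 pairs, without overlap of the groups. Both Acaa1a probe sets can share signal with related transcripts, so the split between these copies is uncertain. Acox3, an oxidase for branched chains, gave -0.19 from a dim signal (mean 1.41 in KO and 1.54 in WT). The D-bifunctional enzyme Hsd17b4 gave -0.08 (95% CI -0.58 to 0.43). Scp2, which encodes a thiolase and a sterol carrier protein from 1 gene, gave -0.09 at its brightest probe set (95% CI -0.60 to 0.42), but its 4 tested probe sets ran from -0.88 to -0.09. The dimmest, at a mean signal of 5.26, was lower in KO in all 3 pairs, with every KO signal below every WT signal. It gave the -0.88 (95% CI -1.39 to -0.38, limma adjusted p = 0.406).

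In alpha-oxidation, which removes 1 carbon from phytanic acid and similar chains, the hydroxylase Phyh gave -0.05 (95% CI -0.54 to 0.44) and the lyase Hacl1 gave -0.17 (95% CI -0.87 to 0.54), with Hacl1 lower in KO in pairs 1 and 2 and higher in pair 3. Catalase (Cat), which removes hydrogen peroxide, gave 0.07 (95% CI -0.40 to 0.53) at its brightest probe set and -0.20 at its other one. At that other probe set, of plain design, KO was lower in all 3 pairs and every KO signal lay below every WT signal.

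The 3 enzymes of ether lipid synthesis differed in direction. Gnpat, the acyltransferase that takes the first step, read 43.3, 62.7 and 63.2 in KO and 31.6, 49.1 and 49.995 in WT. Its means were 56.4 ± 11.3 and 43.6 ± 10.4 (SD, n = 3), and the log2 difference was 0.38 (95% CI -0.06 to 0.83, adjusted p = 0.638). The groups overlapped because both animals of pair 1 were the lowest of their genotype, yet the ratio within pairs was even, at 1.37, 1.28 and 1.26, and leaving out a pair gave 0.34 to 0.40.

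Far1, the reductase that supplies the fatty alcohol, read 2.30, 4.26 and 2.95 in KO and 2.28, 5.73 and 4.48 in WT. Its log2 difference was -0.34 (95% CI -0.84 to 0.17, adjusted p = 0.702). The groups overlapped, with like values in pair 1 (ratio 1.01) and lower KO values in pairs 2 and 3 (0.744 and 0.658). The 4 tested probe sets of Far1 ran from -0.34 to 0.14. Agps, which exchanges the acyl for an alkyl chain, gave 0.16 (95% CI -0.37 to 0.69) at its brightest probe set, where the pairs went both ways. Its second tested probe set, dimmer at a mean signal of 1.93, gave 0.34 (95% CI -0.12 to 0.81). There KO was higher in all 3 pairs, and every KO signal lay above every WT signal.

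Across the members, 62 probe sets carried a member symbol alone and 54 were bright enough to be tested. Of the 14 members with more than 1 tested probe set, 5 had values of both signs, namely Pex19, Pex2, Acaa1a, Cat and Far1. None of Abcd2, Pex6, Pex5 or Scp2 was among them. Pecr, Pex10, Gnpat, Ehhadh, Decr2 and Crot each rested on 1 tested probe set.

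The members' differences varied with the pair. Their median difference was 0.04 in pair 1, -0.32 in pair 2 and 0.24 in pair 3, with 21 of 31 lower in KO in pair 2 and 26 of 31 higher in pair 3. The median of all genes tested was -0.03, -0.24 and 0.06 in the same pairs. Genes of mitochondrial beta-oxidation gave -0.04, -0.32 and 0.24, and 15 of 17 were lower in pair 2 and 17 of 17 higher in pair 3. The brown adipocyte markers gave 0.04, -0.20 and 0.18. The skeletal muscle markers ran the other way, at -1.36, 3.71 and -3.37, and the part of muscle RNA in these pair medians was not tested.

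Each array was also centred on the mitochondrial beta-oxidation genes instead of its median. This moves every fitted difference by the same amount, and the members' median went from -0.004 to -0.03. The move was too small to turn even the smallest positive difference, 0.04 for Abcd3. That all 31 members kept the direction of their fitted difference is therefore no check, whereas the counts by pair could change. Pex10, Pex6 and Pecr were then still higher in all 3 pairs, with Pex3, and differed by 0.55, 0.52 and 0.61. Ehhadh, Crot, Decr2 and Gnpat no longer were. Abcd2 gave -0.74 on that scale and was lower in all 3 pairs. Only 1 member then had an unadjusted p under 0.05, against 4 on the array-median scale.

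**Figure D4:**
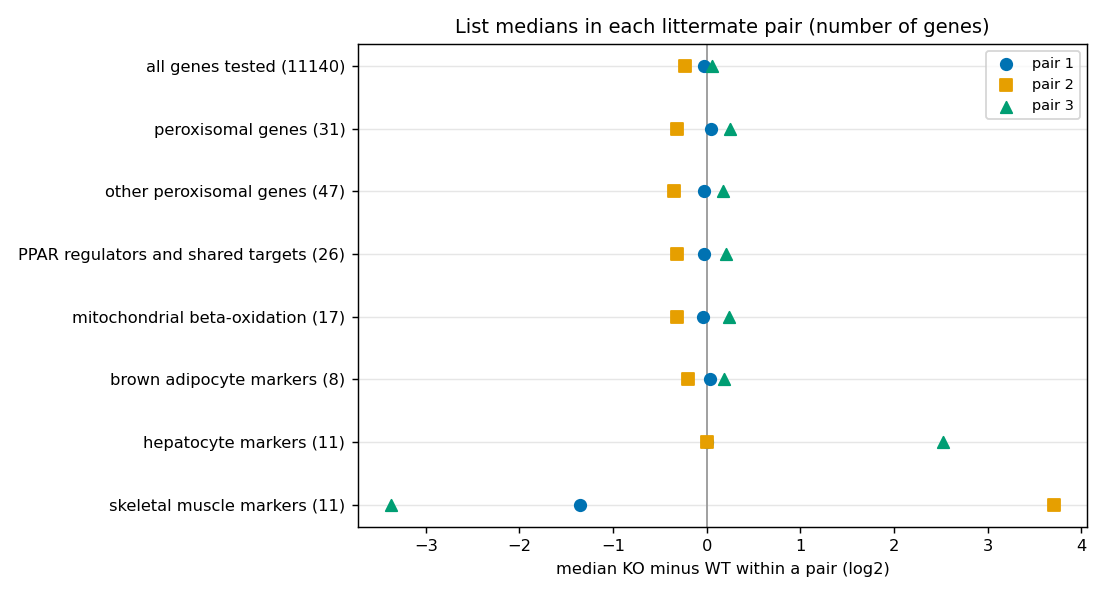
Median KO minus WT difference within each littermate pair on the log2 scale (x axis) for gene lists (y axis, number of genes in brackets); each symbol is 1 pair. The peroxisomal genes lie at 0.04, -0.32 and 0.24, beside the mitochondrial beta-oxidation genes at -0.04, -0.32 and 0.24, and the skeletal muscle markers spread from -3.37 to 3.71 (hepatocyte markers are at 0 in pairs 1 and 2).

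Levels also differed between litters irrespective of genotype. Both arrays of pair 1 were above the other 4 arrays for 8 of the 31 members, Pex16, Pex19, Pex14, Abcd3, Ehhadh, Scp2, Decr2 and Ech1, beside 12.8% of all genes. They were below the other 4 for 4 of the 31 members, Crot, Cat, Gnpat and Far1, a share near the 13.6% of all genes. Ehhadh was 57.3 to 60.8 in pair 1 and 6.65 to 23.3 in pairs 2 and 3, and Decr2 was 7.56 to 7.79 and 2.37 to 4.16. Ppargc1a, a coactivator of PPARs and of mitochondrial biogenesis, ran with them at 72.7 to 111 in pair 1 and 9.88 to 12.2 elsewhere, as did Dio2, the deiodinase that makes active thyroid hormone in BAT, at 44.3 to 101 and 4.05 to 15.3. The labels name no difference between the litters. RNA measures did differ: the ratio of 3' to 5' pyruvate carboxylase signal was 10.7 in KO 1 and 8.99 in WT 1, against 22.1 to 52.9 on the other 4 arrays. That of Gapdh was 0.720 and 0.690 in pair 1, against 0.755 to 0.961. The beta-actin ratio did not set pair 1 apart, at 1.95 and 2.06 against 1.91 to 3.80. The part of RNA quality in the pair 1 levels was not tested.

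**Figure D5:**
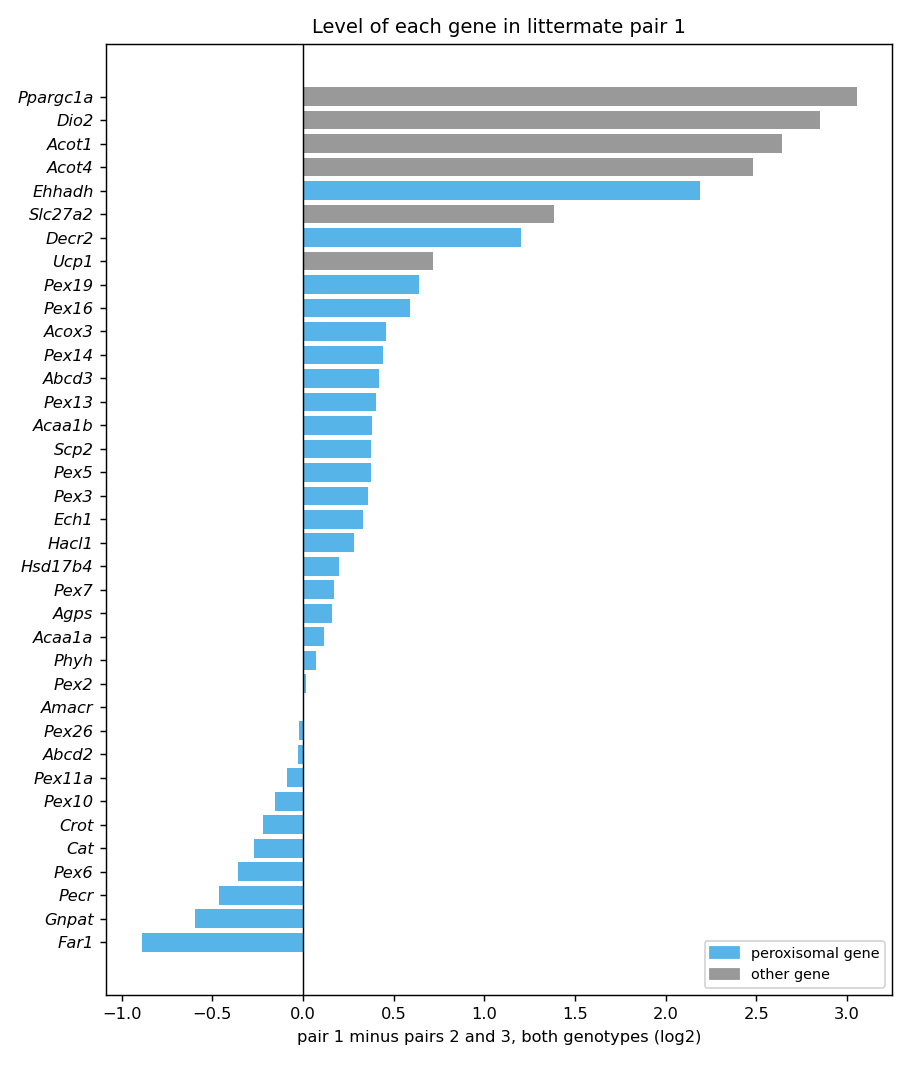
Mean log2 signal of the 2 mice of pair 1 minus that of the 4 mice of pairs 2 and 3 (x axis) for the 31 peroxisomal genes and 6 other genes (y axis), as bars from 0. Ehhadh (2.19) and Decr2 (1.20) are the peroxisomal genes furthest above 0 and Far1 (-0.89) the one furthest below.

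Of 68 further peroxisomal genes listed, 60 had a probe set named to them alone and 47 were tested. None passed the adjusted test, and their median was -0.10, or 0.0546 without pair 2 and -0.21 without pair 3. In all 3 pairs 5 were higher in KO and 9 lower, 10.6% and 19.1%, near the 10.9% and 19.7% of all genes. At an unadjusted p under 0.05, 3 were higher (Pxmp2, Slc27a2 and Eci3), 6.38% beside 3.22% of all genes. At the same level 4 were lower (Acox2, Ddo, Pmvk and Idi1), 8.51% beside 4.98%.

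Acox2, the oxidase of branched chains and bile acid precursors, read 1.61, 1.44 and 1.15 in KO and 2.89, 4.10 and 3.19 in WT, a dim signal. The level in WT was 2.42-fold that in KO (log2 -1.27, 95% CI -1.80 to -0.75, limma adjusted p = 0.396). It was at least 1.5-fold lower in every pair, and its adjusted p was 0.0461 with a pseudocount instead of a floor, where it no longer reached 1.5-fold in every pair, 0.0369 with the stricter filter on dim probe sets, 0.0141 with the intensity-dependent prior and 0.0137 without pair 1. It was the 1 gene of this list at least 1.5-fold lower in every pair.

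Pxmp2, a channel of the peroxisomal membrane, read 25.2, 34.8 and 38.1 in KO and 17.1, 18.6 and 18.1 in WT, without overlap (log2 0.85, 95% CI 0.36 to 1.33, adjusted p = 0.406). Slc27a2, an acyl-CoA synthetase for very-long-chain fatty acids, was at least 1.5-fold higher in KO in every pair, at 88.1, 30.2 and 45.1 in KO and 57.4, 19.8 and 20.5 in WT (log2 0.79, adjusted p = 0.439), although the level in pair 1 made the groups overlap. With the intensity-dependent prior the adjusted p was 0.00835 for Pxmp2 and 0.0146 for Slc27a2. The isoprenoid enzymes Pmvk and Idi1 gave -0.85 and -0.72, with Idi1 equal between the littermates of pair 3, and the D-aspartate oxidase Ddo gave -0.53.

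Of 33 PPAR regulators and PPAR targets outside peroxisomes, 26 were tested, 0 passed and the median was -0.04. The 6 largest differences were 1.20 for the thioesterase Acot1 (8.15, 0.670 and 0.797 in KO against 1.63, 0.674 and 0.326 in WT, and a difference of 0.64 without pair 1), -0.81 for the lipid droplet protein Plin2, 0.44 for the receptor Rxrg, -0.33 for the coactivator subunit Med1, -0.32 for Vnn1 and 0.31 for Angptl4. Of 17 mitochondrial beta-oxidation genes tested, 0 passed, the median was -0.02, and the largest differences were small: -0.30 for the carnitine acyltransferase Cpt1a, -0.28 for Cpt2, 0.25 for Eci1, 0.22 for Etfb, -0.13 for Hadha and -0.13 for Decr1. Etfb alone was higher in KO in all 3 pairs. Cpt1a, Cpt2, Acadm, Acadl, Acadvl, Hadha and Hadhb were in both the PPAR list and the mitochondrial list, so the medians of these lists are not independent.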

How the data were processed

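Total RNA of BAT from 3 KO and 3 WT mice was hybridised to 1 array per animal. The values the authors deposited are linear signal intensity, 1 for each probe set, from GCOS according to the labels. Its version, algorithm and scaling were not given in the sources used here. From 45101 rows, 64 controls were set aside, each intensity was divided by its array's median (16.5 to 20.4 intensity units), values below 0.25 were raised to 0.25, and the result was put on the log2 scale. Testing was limited to probe sets averaging above 1. Precision was limited by the 6 arrays.

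Names came from a platform annotation table: 34945 probe sets carried 1 symbol, 932 several and 9160 were unlisted, and 34741 were matched to the RefSeq gene table. Limma 3.58.1 in R 4.3.3 (lmFit, eBayes) was fitted with terms for genotype and litter, and p-values were adjusted by Benjamini-Hochberg across all 22356 probe sets in the fit, with a threshold of 0.05. Animals of the same number were taken as a littermate pair. Within pairs, correlations of the arrays' deviations from their group mean were 0.446, 0.0847 and 0.160, and they were -0.359 to 0.281 across pairs. Simulated data served as a test of the fit. The members, gene lists and tests were chosen with earlier results of these data known. Every member was named by its brightest probe set, with signals for the 10 largest differences, and up to 6 genes of each other list. Alternatives were no pair term, undivided or quantile-normalized signals, floors of 0.1 and 0.5, a pseudocount of 1, no filter or one above 2, an intensity-dependent robust prior, the mean over probe sets, probe sets of plain design alone, and leaving out each pair. Centring on mitochondrial beta-oxidation genes was chosen after seeing the data.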

Additional observations from a re-analysis of the deposited data

How the results depend on the processing

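Without the replicate block for the littermate pair, 0 probe sets and 0 members passed. Each pair holds 1 KO and 1 WT, so leaving out the block cannot change a fitted difference. That 31 of 31 members kept their direction there was thus fixed by the design. The number of probe sets that passed, 0 as reported, was 123 with a pseudocount, 40 with the stricter filter, 311 with the intensity-dependent robust prior and 0 to 255 when a pair was left out, the highest without pair 1. Members that passed numbered 1 with the intensity-dependent prior (Abcd2) and 0 in every other setting. Members at 1.5-fold in all pairs, 0 each way as reported, were 1 higher with quantile normalization (Pex6), 0 to 1 higher when a pair was left out (Pecr without pair 1, Pex6 without pair 2) and 0 to 1 lower (Abcd2 without pair 1). Members higher in all pairs were 7 to 16 with a pair left out, the most without pair 2, and 4 after centring on mitochondrial beta-oxidation genes. Members lower in all pairs were 4 with plain probe sets alone and 3 to 11 with a pair left out, the most without pair 3. Of the other peroxisomal genes, 1 passed with a pseudocount, 1 with the stricter filter, 4 with the intensity-dependent prior and 0 to 1 with a pair left out.

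Signs turned for the following genes. On undivided signals, Acaa1a gave 0.000214, Phyh 0.00865, Pex14 0.0415, Pex19 0.0440 and Pex2 0.0575. After quantile normalization Acaa1a gave 0.00943, Pex19 0.0444, Pex14 0.0568 and Pex2 0.0608. With the mean over probe sets Cat gave -0.0654, Pex2 0.0425, Acaa1a 0.13 and Cpt2 0.54, and with plain probe sets Cat gave -0.20 and Pex2 0.0892. With a pair left out the lowest and highest differences were -0.0730 to 0.29 for Pex16, -0.14 to 0.0511 for Pex19, -0.0258 to 0.0122 for Pex2, -0.00573 to 0.21 for Pex26, -0.0868 to 0.24 for Abcd3, -0.42 to 0.36 for Acaa1a, -0.0340 to 0.28 for Amacr, -0.0426 to 0.32 for Agps, -0.45 to 0.00793 for Pex13, -0.12 to 0.17 for Pex14, -0.24 to 0.0756 for Hsd17b4, -0.26 to 0.0585 for Scp2, -0.21 to 0.0822 for Ech1, -0.19 to 0.0824 for Phyh, -0.56 to 0.14 for Hacl1, -0.47 to 0.0434 for Acox3, -0.12 to 0.68 for Acaa1b, -0.47 to 0.0184 for Cpt1a and -0.29 to 0.0293 for Decr1. The cause of these turns was not tested. The median of all genes moved from -0.07 to 0.01 without pair 2 and -0.13 without pair 3. The median of the PPAR targets was 0.07 without pair 2 and -0.19 without pair 3, and that of mitochondrial beta-oxidation 0.12 and -0.18. Among the members, the difference of Pex6, at 0.55, was the smallest whose interval excluded 0.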
